A study of Mus musculus with 12 samples.

Results

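The genes described here are the 22 microRNA genes that were detected in mouse embryonic stem cells (ESCs) by RNA-seq of total RNA. They were chosen by symbol and by value: the symbol names a microRNA hairpin (Mir and a digit, or Mirlet7, without host transcripts whose symbols end in hg), and the FPKM (fragments per kilobase of transcript, scaled by mapped fragments) is above 0 in both libraries of at least 1 group. The table holds 24881 gene symbols, 1145 of which name a microRNA, and 77 of those were above 0 in at least 1 library. Because the 22 genes were selected on all 8 libraries, their own values, and counts of calls among them, are given as a description that supports nothing. Tests are given for the genes that host them and for the genes of the microRNA pathway, which the selection did not use.

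The cells were R1 ESCs carrying the FUCCI reporters, fluorescent proteins that mark the phase of the cell cycle, and all were sorted in G1 phase. WT and P53-/- ESCs were each grown in serum and in 2i, a medium with an inhibitor of MEK, an inhibitor of GSK3 and LIF. The P53-/- cells were clones made with CRISPR/Cas9 cutting in Trp53; RNA-seq used clones 1 and 2, and the table does not tell which library came from which clone. Each of the 4 groups had 2 libraries, numbered here by their order in the table, and nothing in the labels says that they came from separate cultures, so that p-values measure only the spread between these libraries. As a check of the labels, Trp53 had an FPKM of 7.25 and 1.88 in P53-/- 2i against 26.8 and 33.7 in WT 2i, and of 16.8 and 3.68 in P53-/- serum against 77.6 and 75.1 in WT serum. Cdkn1a, the P53 target that encodes P21, lay between 3.56 and 4.64 in the 4 P53-/- libraries and between 15.9 and 23.9 in the 4 WT libraries. The summed FPKM of 8 ESC markers (among them Pou5f1, Sox2 and Nanog) ran from 1986 to 2086 in 2i and from 1715 to 1910 in serum, and that of 5 housekeeping genes from 3204 to 3784 in 2i and from 2021 to 2364 in serum. That of 6 fibroblast markers ran from 0.456 to 1.34 in 2i and from 7.73 to 10.5 in serum, with Col3a1 and Postn listed at 0 in every library. In 2i, 3 mesoderm markers summed to 1.99 and 2.25 in P53-/- and to 4.37 and 5.32 in WT, and in serum to 1.66 and 2.53 against 2.93 and 2.97. In 2i the 5 primitive endoderm markers added up to 1.42 and 2.23 for P53-/- against 2.28 and 4.19 for WT, and in serum to 1.03 and 1.29 against 2.11 and 2.39. The 4 neuroectoderm markers added up to 22.5 and 27.7 for P53-/- against 31.5 and 34.2 for WT in 2i, and to 36.0 and 41.1 against 26.5 and 27.5 in serum, where the order of the genotypes was the other way round. The part of these marker levels in the differences described was not tested.

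A microRNA is cut from a hairpin in a longer transcript, first in the nucleus by Drosha and its partner Dgcr8 and, after export by Exportin-5, in the cytoplasm by Dicer. The mature strand is loaded into an Argonaute protein and finds its messenger RNAs mainly through its seed, bases 2 to 8, after which Tnrc6 proteins recruit the enzymes that remove the poly(A) tail and the cap. In ESCs the miR-290 and miR-302 clusters and the miR-17 family are known for promoting the G1 to S transition, let-7 for promoting differentiation, and miR-34a as a direct target of P53. The libraries were made with random primers from fragmented RNA and not by ligation of small RNA, so whether the fragments came from a primary transcript, a hairpin, a mature strand or another RNA of the same place cannot be told apart.

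Mature sequences are shown first for the families that hold more than 1 of the 22 genes, since these share their seed (in capitals). RefSeq sequences on GRCm38.p6 were matched by symbol, with a mature strand for 21 of the 22 genes and 36 strands in all. The pair Mir106b and Mir20a shares 1 seed, and so do the pairs Mir18 and Mir18b, Mir25 and Mir363, and Mirlet7a-1 and Mirlet7g.
miR-106b-5p: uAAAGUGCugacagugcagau
miR-20a-5p: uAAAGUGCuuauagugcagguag
miR-18a-5p: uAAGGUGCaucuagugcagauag
miR-18b-5p: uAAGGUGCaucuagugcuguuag
miR-25-3p: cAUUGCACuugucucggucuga
miR-363-3p: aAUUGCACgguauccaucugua
let-7a-5p: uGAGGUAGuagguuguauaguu
let-7g-5p: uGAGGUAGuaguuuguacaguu
The first 3 pairs belong to the miR-17 group of clusters, which lie on 3 chromosomes. Mir18 and Mir20a start 306 bases apart on chromosome 14 (Mir18 at chr14:115043851-115043946, plus strand, in GRCm38.p6), Mir106b and Mir25 416 bases apart on chromosome 5 (Mir106b at chr5:138165737-138165818, minus strand), and Mir18b and Mir363 638 bases apart on chromosome X. Mir34a is shown for its tie to P53 and Mir6236 for its values in serum, described further on.
miR-34a-5p: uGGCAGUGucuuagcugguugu
miR-6236: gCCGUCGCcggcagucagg

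Most of the 22 genes were detected in serum alone, and few were detected in all groups. Both libraries were above 0 for 6 of them in P53-/- 2i, 4 in WT 2i, 19 in P53-/- serum and 14 in WT serum. Counting groups, 8 genes were detected in P53-/- serum alone, 3 in WT serum alone, 5 in both serum groups, 2 in every group but WT 2i, and 4 in every group. Counting libraries, 4 genes were above 0 in all 8, 2 in 7, 1 in 5, 5 in 4, 8 in 3 and 2 in 2. The grid of values by library shows the same order, with the 2i columns empty for most rows.

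**Figure D1:**
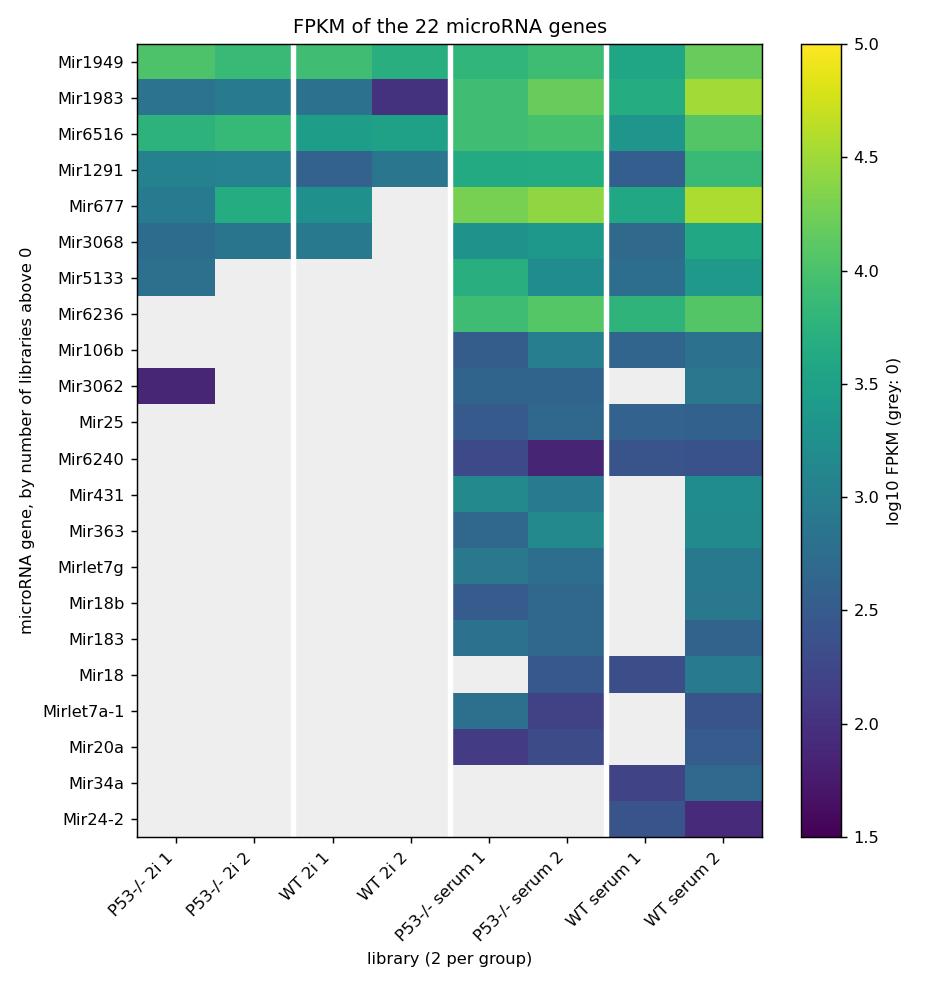
FPKM of the 22 microRNA genes (rows) in the 8 libraries (columns, 2 per group), as colour on a log10 scale, with grey for a value of 0. The 6 genes at the top are above 0 in 7 or 8 libraries, and 14 genes are at 0 in all 4 2i libraries.

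The number of microRNA symbols above 0 differed as much between the libraries of a group as between groups in serum. It was 10 and 7 in P53-/- 2i, 7 and 5 in WT 2i, 24 and 38 in P53-/- serum, and 19 and 57 in WT serum. Small RNA genes as a whole ranked the serum libraries in the same order, but not the 2i libraries. In all, 1301 of them (microRNA, snoRNA and the like) summed to between 6230000 and 7290000 FPKM in the 2i libraries. The highest of these sums was in WT 2i library 2, which had the fewest microRNA symbols. In serum the sums were 36000000 and 48500000 for P53-/-, and 15800000 and 79800000 for WT. All other genes together summed to between 420000 and 490000 FPKM, a sum that the scaling of FPKM to library size constrains and that does not show how far single genes differed. The 22 genes took between 0.122% and 0.351% of the small RNA sum in 2i and between 0.147% and 0.187% in serum. WT serum library 2 stood apart, with 22 of the 22 genes above 0 against 14 in WT serum library 1. The part of this small RNA content in the differences below was not tested.

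**Figure D2:**
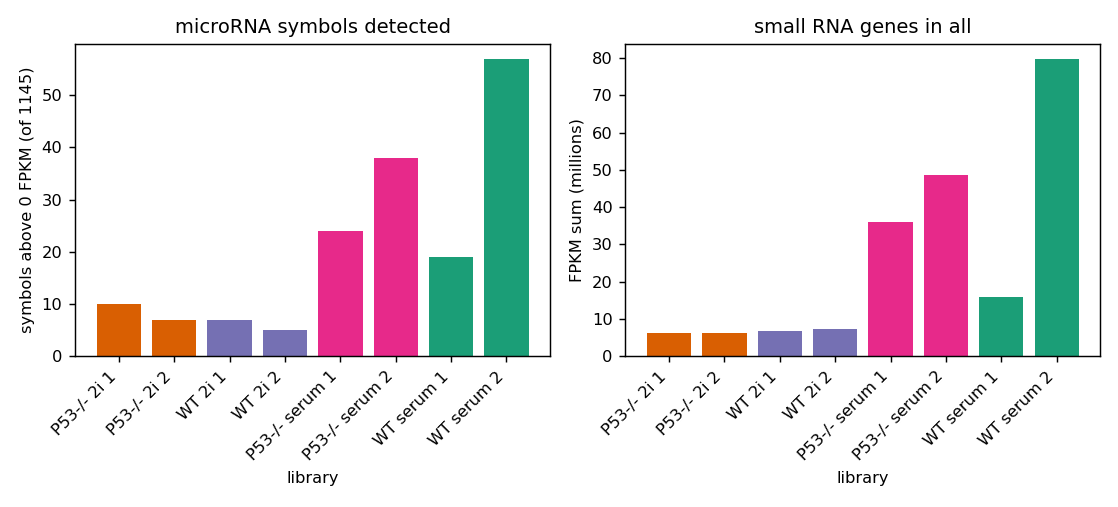
Left, number of the 1145 microRNA symbols with an FPKM above 0 in each library; right, summed FPKM of the 1301 small RNA genes. WT serum library 2 is highest in both, with 57 symbols and 79800000 FPKM, and the 4 2i libraries are lowest.

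The values of most of these genes rested on a handful of fragments. FPKM holds no counts, so the value of 1 fragment was estimated as a common step for short genes of equal length. The step was fitted so that most low values of small RNA genes, microRNA genes among them, fell on whole multiples. Of the 64 member values of 8 fragments or fewer, 60 lay within 0.1 of a whole number, which is therefore no test of the step. For a gene of 82 bases, the length of Mir106b, that step came to 221 and 582 FPKM in P53-/- 2i, 652 and 1944 in WT 2i, 342 and 251 in P53-/- serum, and 432 and 214 in WT serum. The estimate takes gene lengths from GRCm38, whereas the submitters' processing notes name mm9, and it is weakest in WT 2i library 2, where 62.5% of low values fell on a whole step. Of the 99 values above 0 of the 22 genes, 22 corresponded to 1 fragment. The 22 genes together had about 162 and 90 fragments in P53-/- 2i, 36 and 14 in WT 2i, 425 and 784 in P53-/- serum, and 227 and 1548 in WT serum. For a value of 0 the limit was set at 3 fragments, a chosen bound and not a maximum. For Mir106b it is 663 FPKM in P53-/- 2i library 1 and 5833 FPKM in WT 2i library 2. These limits cover counting error only.

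The genes just inside and just outside the rule overlapped in value. Mir20a, with 131 and 198 FPKM in P53-/- serum, was among the lowest that passed. Outside it, 55 microRNA symbols were above 0 in 1 or 2 libraries, 42 of them in a single library and 22 of those in WT serum library 2. The highest of the 55 was Mir540, with 3037 FPKM in WT serum library 2 and 588 in P53-/- serum library 2. Of the miR-290 cluster 9 symbols were in the table and of the miR-302 cluster 5, and all were listed at 0 in the 8 libraries.

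Each of the 6 genes detected in 7 or 8 libraries overlaps another small RNA gene. Mir1291 shares 92 bases with Snora34, an H/ACA snoRNA of an intron of Kansl2, and Mir6516 shares 88 bases with the scaRNA gene Gm26083 inside Snhg20. The symbols Mir1949, Mir3068 and Mir677 each name a snoRNA as well as a microRNA in GENCODE M21, and a line of the table could hold either. Mir1983 shares 94 bases with a RefSeq tRNA gene for isoleucine. In all, 5 of the 22 genes (22.7%) overlapped a snoRNA or scaRNA gene on the same strand, against 7 of the 1123 other microRNA symbols (0.623%). The hairpins of 3 of them are printed here with the annotated mature strands in capitals, since most of each hairpin is shared with the overlapping gene.
Mir1291: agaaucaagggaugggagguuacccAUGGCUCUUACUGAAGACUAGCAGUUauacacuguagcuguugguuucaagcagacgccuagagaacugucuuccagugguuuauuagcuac
Mir6516: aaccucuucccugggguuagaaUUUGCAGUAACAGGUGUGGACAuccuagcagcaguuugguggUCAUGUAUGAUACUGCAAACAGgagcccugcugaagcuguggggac
Mir1983: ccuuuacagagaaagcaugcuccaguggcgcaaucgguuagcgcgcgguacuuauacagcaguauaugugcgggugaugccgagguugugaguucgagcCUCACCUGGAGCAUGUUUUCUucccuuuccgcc
In GRCm38.p6 they lie at chr15:98519762-98519878 (minus strand, intron of Kansl2), chr11:117077348-117077457 (plus strand, exon of Snhg20) and chr13:21896918-21897049 (minus strand).

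Mir6516 had an FPKM of 5828 and 7086 in P53-/- 2i, 2904 and 3170 in WT 2i, 8412 and 9509 in P53-/- serum, and 2163 and 11506 in WT serum. In 2i both P53-/- libraries lay above both WT libraries, while in serum the WT libraries lay on either side of the P53-/- libraries. Mir1291 had 1102 and 1137 in P53-/- 2i, 401 and 746 in WT 2i, 4408 and 4511 in P53-/- serum, and 348 and 7526 in WT serum. The snoRNA it overlaps, Snora34, had 15093 and 23753, 23044 and 35029, 125116 and 129269, and 40168 and 287580 FPKM in the same order of groups. In WT serum both were lower in library 1 than in library 2. In 2i Mir1291 was higher in P53-/-, while Snora34 had a lower mean there (19423 against 29037 in WT), with libraries that overlapped. Mir1983 had 681 and 873 in P53-/- 2i, 644 and 103 in WT 2i, 8491 and 15464 in P53-/- serum, and 4645 and 32501 in WT serum, so that all serum libraries lay above all 2i libraries.

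Mir1949 was the one of the 4 genes above 0 in all libraries whose cultures overlapped in both genotypes. It had 10419 and 7398 FPKM in P53-/- 2i, 8503 and 4875 in WT 2i, 6387 and 8123 in P53-/- serum, and 3596 and 15494 in WT serum. Mir677, in an intron of the ATP synthase subunit gene Atp5b, had 864 and 4674 in P53-/- 2i, 1780 and 0 in WT 2i, 18875 and 26452 in P53-/- serum, and 3813 and 36936 in WT serum. Mir3068, in an intron of Alkbh1, had 540 and 725 in P53-/- 2i, 828 and 0 in WT 2i, 1954 and 2315 in P53-/- serum, and 515 and 3904 in WT serum. For both, the 0 of WT 2i library 2 stood at a limit above the values of the other 2i libraries, at 7733 FPKM for Mir677 and 7198 for Mir3068.

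Mir34a, a microRNA gene that P53 is known to activate, was above 0 in the WT serum libraries alone. Its FPKM was 163 and 490 there, about 1 and 5 fragments, while the P53-/- serum libraries and the 4 2i libraries were all at 0. The limit of 3 fragments for this gene of 102 bases (chr4:150068454-150068555, plus strand) was 458 and 346 FPKM in the P53-/- serum libraries, above the WT serum mean of 327 ± 231 (SD, n = 2). Each P53-/- serum library taken singly could therefore have missed a level like the WT serum mean. A joint limit for both zeros, which would be lower, was not worked out. In WT 2i, with limits of 667 and 1649 FPKM, a level like that of WT serum could have been missed. Mir24-2 had the same pattern, with 260 and 83.3 FPKM in WT serum (about 2 and 1 fragments) and 0 in the other 6 libraries, below P53-/- serum limits of 391 and 296 FPKM. These were the 2 genes that the fit across all genes called lower in P53-/- serum, of 22 tested, where 1.02% of all genes tested were called in either direction. A call here means limma on log2(FPKM + 0.1) with a fold change above 1.5 at an adjusted p below 0.1, and the selection used these libraries, so nothing is read from the count. Without WT serum library 2 it was 11, and without any other library between 2 and 3.

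In 2i none of the 22 genes was called between the genotypes, where 10.3% of all genes tested were; 14 of the 22 were at 0 in all 4 2i libraries and could not be called, and nothing is read from this count. Mir6516, Mir1983 and Mir1291 were above 0 in the 4 2i libraries without overlap, with P53-/- the higher by 1.09, 1.06 and 0.97 on the log2 scale of the ratio of means. Mir6516 rested on about 93 and 53 fragments for P53-/- against 18 and 9 for WT, Mir1983 19 and 14 against 7 and 1, and Mir1291 22 and 11 against 3 and 3. The 103 FPKM of Mir1983 in WT 2i library 2 lay under the limit of 318 FPKM that a 0 would allow there, and its difference was 0.27 without that library and 2.91 without WT 2i library 1. That of Mir1291 ran from 0.59 to 1.48 with the 2i libraries left out singly. Mir6516, Mir1983 and Mir1291 were the 3 genes of the 22 without overlap in that comparison, whereas 53.6% of all genes tested had no overlap. In serum 4 of the 22 did not overlap, against 47.5% of all genes tested; besides Mir34a and Mir24-2 these were Mir6240, with 186 and 71.9 FPKM in P53-/- against 254 and 243 in WT, and Mir183, with 639 and 478 in P53-/- against 0 and 408 in WT. Mir6240 had 1 to 4 fragments in each serum library and Mir183 at most 1.

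Between the cultures the calls among the 22 genes were all lower in 2i. Since the 22 genes were selected on these libraries, nothing is read from the counts or their direction; 8, 3 and 5 of the genes met the rule in P53-/- serum alone, WT serum alone and both serum groups. In WT 11 were called, where 55.7% of all genes tested were called, and in P53-/- 13, where 58.2% were. For 8 of the 11 and 11 of the 13 a group was listed at 0, so that the fold change is set by the pseudocount and is not given. No overlap was seen for 10 of the 22 genes in WT and 18 in P53-/-, against 81.7% and 81.8% of all genes tested. Without WT serum library 1 the number called in WT was 20 in place of 11.

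Of the 14 genes at 0 in all 4 2i libraries, Mir6236 was the one whose serum values all lay above the limit of detection in 2i. Its FPKM was 8113 and 12023 in P53-/- serum and 5905 and 11634 in WT serum, about 95, 184, 87 and 223 fragments. Whether those fragments came from this gene or from RNA of like sequence elsewhere was not tested. A count of 0 allowed at most 130, 247, 335 and 511 FPKM in the 4 2i libraries. Taking that floor per library, Mir6236 lay above the highest of them in every serum library. For the other 13 genes the highest number of fragments in any serum library ran from 1 to 11. In WT, 16 genes were at 0 in both 2i libraries, and Mir6236 was the only one with a WT serum mean above even the lower of both limits. In P53-/-, Mir431 joined it with a serum mean of 1133 ± 382 FPKM (SD, n = 2) against limits of 403 and 996. Mir106b, Mirlet7a-1 and Mirlet7g had a P53-/- serum mean above the limit of 1 of the 2 libraries. For the remaining genes at 0 in 2i the serum mean of the same genotype lay under the limit of each 2i library taken singly. A joint limit of 2 libraries at 0, which would be lower, was not worked out.

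**Figure D3:**
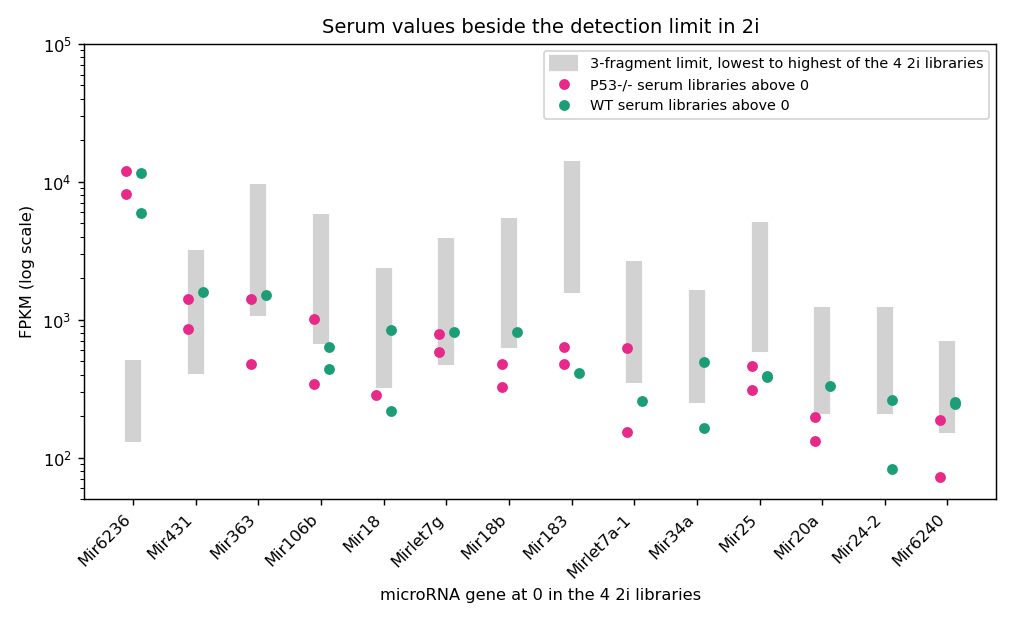
FPKM (log axis) of the serum libraries above 0 (points) for the 14 microRNA genes at 0 in all 4 2i libraries, beside the range of the 3-fragment limit over the 4 2i libraries (grey bars). Mir6236 lies above its bar in all 4 serum libraries; for the other genes points lie inside or below the bar.

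The genes of the miR-17 group were detected in serum and at 0 in 2i. Mir106b, in an intron of Mcm7, had 340 and 1005 FPKM in P53-/- serum and 437 and 635 in WT serum, and Mir25, in an exon of an Mcm7 transcript, had 311 and 460 and 393 and 387. The genotypes overlapped for both genes. From the miR-17-92 transcript, Mir18 had 0 and 287 in P53-/- serum and 216 and 844 in WT serum, and Mir20a had 131 and 198 and 0 and 333. On chromosome X, Mir18b had 325 and 480 and 0 and 809, and Mir363 had 478 and 1422 and 0 and 1504. These 6 genes had between 6 and 10 fragments each over the 8 libraries.

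The let-7 genes Mirlet7g and Mirlet7a-1 were at 0 in 2i and in WT serum library 1. Mirlet7g, in an intron of Wdr82, had 790 and 583 FPKM in P53-/- serum and 818 in WT serum library 2, and Mirlet7a-1 had 626 and 154 and 259. Mir431, of the imprinted Dlk1-Dio3 region and antisense to an exon of the protein-coding gene Rtl1, had 1403 and 863 in P53-/- serum and 1598 in WT serum library 2. Mir5133, in an exon of Glce, was above 0 in 5 libraries, with 616 and 0 in P53-/- 2i, 5175 and 1599 in P53-/- serum, and 577 and 2430 in WT serum. Mir3062, in an exon of Pfas, was above 0 in 4, with 76.1 in P53-/- 2i library 1, 422 and 422 in P53-/- serum, and 799 in WT serum library 2. In each of these 5 genes WT serum library 1 held 1 fragment or none.

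Host genes are measured on far longer transcripts, and their values were not used in the selection, although Mir17hg, Mcm7, Pfas, Glce and Snhg20 share exon bases with a microRNA gene they hold. By GENCODE M21, 8 of the 22 genes lie in an exon and 5 in an intron of a gene on the same strand, and 9 have no host. Of the hosts, 9 are in the table. Between the cultures 5 of the 9 were called in WT and the same 5 in P53-/- (55.6% in each), near the 55.7% and 58.2% of all genes tested. Mir17hg, Glce and Pfas were lower in 2i, and Atp5b and Snhg20 were higher. No host was called between the genotypes in 2i or in serum with limma, where 10.3% and 1.02% of all genes tested were. At an unadjusted p under 0.05 there was 1 in 2i and 0 in serum, with no share of all genes worked out. With 9 hosts nothing is read from these counts.

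Mir17hg, the primary transcript of the miR-17-92 cluster, had an FPKM of 4.25 and 7.47 in P53-/- 2i, 4.49 and 6.95 in WT 2i, 29.4 and 47.2 in P53-/- serum, and 34.3 and 37.4 in WT serum. All serum libraries lay above all 2i libraries. The log2 fold change of 2i against serum was -2.66 in WT (SE 0.33, limma adjusted p = 0.00036) and -2.70 in P53-/- (SE 0.33, limma adjusted p = 0.000287). Mir18 and Mir20a, within its exon, were above 0 in serum libraries alone, as listed above.

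For Mir6516 and Mir677 the means of the host and of the microRNA symbol differed between the cultures in opposite directions. Snhg20, a noncoding host of small nucleolar RNA that contains Mir6516, had 40.9 and 60.3 FPKM in P53-/- 2i, 37.4 and 46.9 in WT 2i, 21.7 and 15.5 in P53-/- serum, and 14.5 and 16.1 in WT serum. It was higher in 2i by 1.45 on the log2 scale in WT (SE 0.23, limma adjusted p = 0.00118) and by 1.43 in P53-/- (SE 0.23, limma adjusted p = 0.00113). The mean of Mir6516 was 3037 ± 188 in WT 2i and 6834 ± 6606 in WT serum, and 6457 ± 890 in P53-/- 2i and 8960 ± 775 in P53-/- serum (FPKM, SD, n = 2); the WT cultures overlapped. Atp5b had 2342 and 2166 in P53-/- 2i, 1921 and 1975 in WT 2i, 998 and 923 in P53-/- serum, and 999.6 and 963 in WT serum, a difference of 0.99 in WT (SE 0.17, limma adjusted p = 0.00163) and 1.23 in P53-/- (SE 0.17, limma adjusted p = 0.000501). With quantile normalization these became 1.72 and 1.81. For its intronic Mir677 the P53-/- serum libraries lay above the P53-/- 2i libraries. In WT the 0 of 2i library 2 had a limit of 7733 FPKM, above the 3813 of WT serum library 1.

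Glce, an epimerase of heparan sulfate synthesis, differed by -0.67 in WT (SE 0.13, limma adjusted p = 0.00286) and -0.74 in P53-/-. Pfas, an enzyme of purine synthesis, differed by -0.70 in WT (SE 0.19, limma adjusted p = 0.0136) and -0.83 in P53-/-. Both lost their call in WT under quantile normalization, at -0.53 and -0.52. Mcm7, a subunit of the replicative helicase that hosts Mir106b and Mir25, lay between 149 and 188 FPKM in all 8 libraries and was called in no comparison. Wdr82, Alkbh1 and Kansl2 were not called either.

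**Figure D4:**
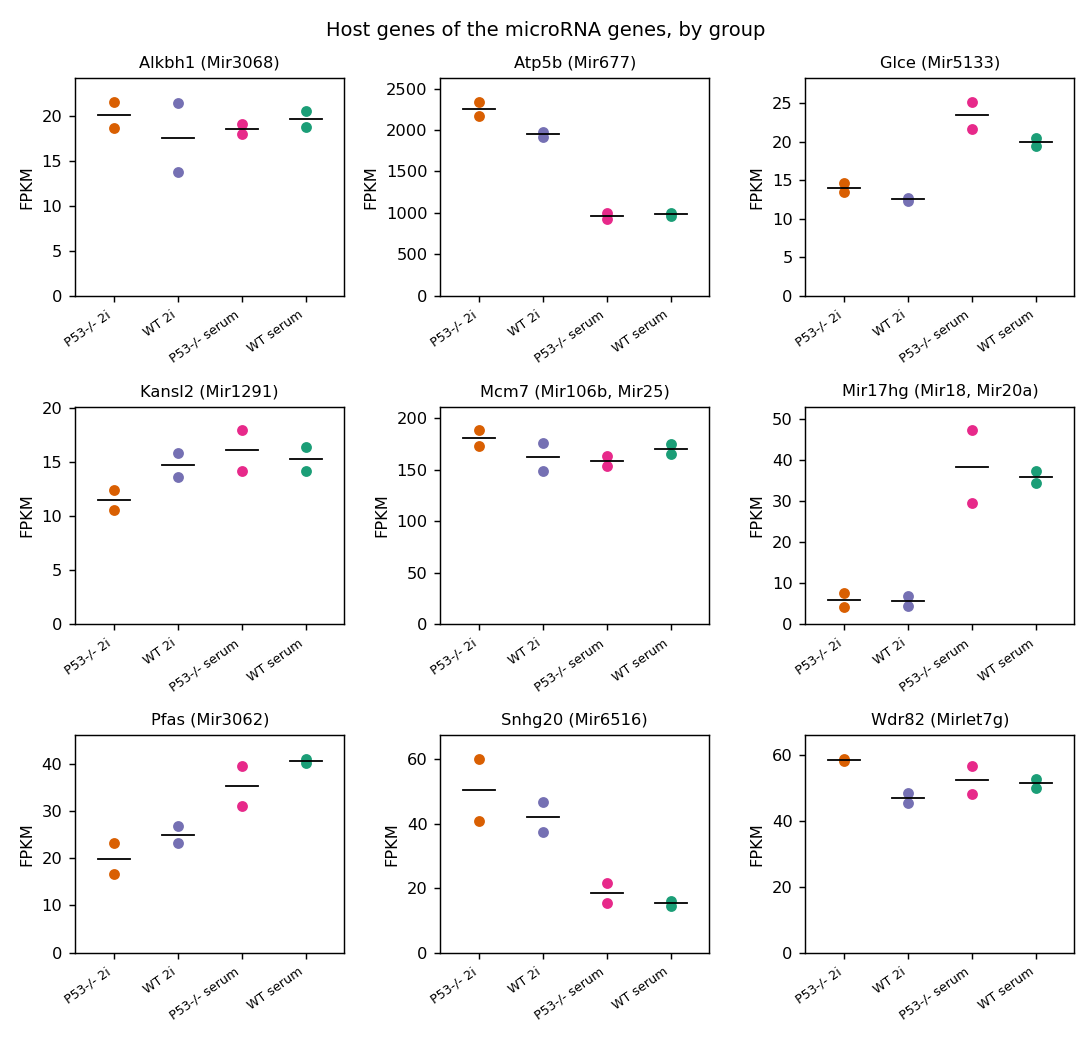
FPKM of the 9 host genes in the table, by group, with the microRNA genes they hold in brackets; points are libraries and the line is the mean of 2. Mir17hg is lower in 2i (4.25 to 7.47) than in serum (29.4 to 47.2), Atp5b and Snhg20 are higher in 2i, and Mcm7 lies between 149 and 188 throughout.

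Genes that make microRNAs and act with them were mostly lower in 2i than in serum, in both genotypes. From a list of 51 genes, 49 passed the filter (a mean FPKM of at least 0.5). Of the other two, named for that reason and not tested, the Argonaute gene Ago4 was higher in 2i without overlap, with 2i values of 0.829 and 0.492 FPKM for P53-/- and 0.853 and 0.710 for WT against serum values of 0.0352 and 0.0622 for P53-/- and 0.0888 and 0.0829 for WT, and Tsnax was above 0 in 1 library alone. In WT 35 of the 49 (71.4%) were called, 32 lower in 2i and 3 higher, beside 28.6% of all genes tested called lower and 27.2% called higher. In P53-/- 32 were called (65.3%), 29 lower and 3 higher, beside 30.1% and 28% of all genes tested. The median log2 fold change of the list was -0.92 in WT and -0.89 in P53-/-, against -0.02 and -0.03 over all genes tested.

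Among the 49 genes tested, the largest differences were in the Lin28 genes, whose proteins bind the let-7 precursor and block its maturation. Lin28a had an FPKM of 6.67 and 3.76 in P53-/- 2i, 10.3 and 8.80 in WT 2i, 106 and 87.0 in P53-/- serum, and 102 and 93.6 in WT serum. The log2 fold change of 2i against serum was -3.35 in WT (SE 0.25, limma adjusted p = 4.98e-05) and -4.23 in P53-/- (SE 0.25, limma adjusted p = 2.05e-05). Lin28b had 2.79 and 2.42, 1.64 and 1.24, 20.2 and 18.4, and 13.7 and 16.9 FPKM in the same order of groups, and differed by -3.32 in WT and -2.85 in P53-/-. Tut4, the uridylyltransferase that Lin28a recruits to let-7, differed by -1.77 and -2.18.

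For the nuclear step, Drosha had 17.8 and 15.9 FPKM in P53-/- 2i, 22.3 and 20.5 in WT 2i, 39.0 and 32.4 in P53-/- serum, and 40.9 and 40.0 in WT serum. It was lower in 2i by a log2 fold change of -0.91 in WT (SE 0.13, limma adjusted p = 0.000778) and -1.08 in P53-/-. Dgcr8, its RNA-binding partner, differed by -0.76 and -0.80. Of the 11 processing genes tested, 8 were called lower in 2i in each genotype and none higher. Xpo5, which encodes Exportin-5, differed by -0.31 in WT (limma adjusted p = 0.151) and -0.35 in P53-/- (limma adjusted p = 0.105) and was not called.

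At the cytoplasmic step, Dicer1 had 3.06 and 2.77 FPKM in P53-/- 2i, 2.84 and 2.39 in WT 2i, 11.99 and 10.6 in P53-/- serum, and 9.85 and 10.4 in WT serum. It differed by -1.92 in both genotypes (SE 0.16, limma adjusted p = 7.68e-05 in WT and 6.2e-05 in P53-/-). Prkra, which encodes the Dicer partner PACT, went the other way: 17.1 and 20.3 in P53-/- 2i, 22.5 and 26.0 in WT 2i, 5.29 and 6.19 in P53-/- serum, and 6.54 and 7.30 in WT serum, a difference of 1.79 in WT (SE 0.16, limma adjusted p = 8.66e-05) and 1.69 in P53-/-. The other genes called higher in 2i, named after their values were seen, were Dis3l2, the exonuclease of uridylated let-7 precursors, in both genotypes, Snd1 in WT and Xrn2 in P53-/-. Tarbp2 was not called.

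Ago2, the Argonaute that can cut its target, had 11.8 and 9.57 FPKM in P53-/- 2i, 11.4 and 11.3 in WT 2i, 25.1 and 14.6 in P53-/- serum, and 21.3 and 23.1 in WT serum. It differed by -0.96 in WT (SE 0.24, limma adjusted p = 0.0101) and -0.84 in P53-/- (SE 0.24, limma adjusted p = 0.0171). The P53-/- call was lost without P53-/- serum library 1, at -0.45, and without P53-/- 2i library 2, at -0.69, and the difference was -1.23 without P53-/- serum library 2. Hsp90ab1, a chaperone of Argonaute loading, differed by -1.71 and -1.50. Among the genes of silencing, 11 of 14 were called lower in 2i in WT and 10 of 14 in P53-/-, and none higher. Tnrc6a, the scaffold that Argonaute binds, differed by -1.95 in WT and -2.19 in P53-/-, and its paralogs Tnrc6b and Tnrc6c by -1.28 and -1.66, and by -1.10 and -1.53. The helicase gene Ddx6 differed by -1.88 and -1.73, the decapping enzyme gene Dcp2 by -1.72 and -1.21, and the exonuclease gene Xrn1 by -1.67 and -1.50.

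**Figure D5:**
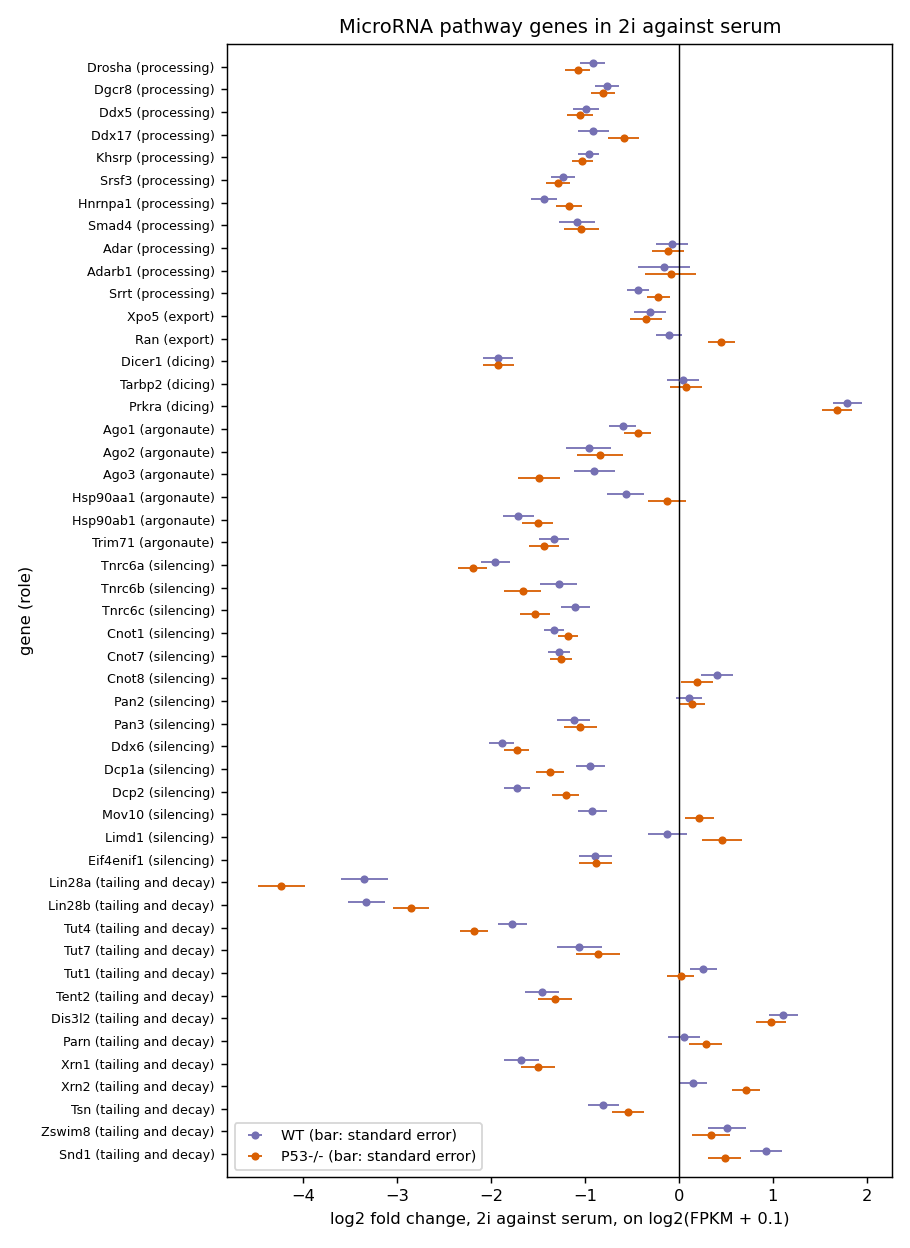
Log2 fold change of 2i against serum for the 49 microRNA pathway genes tested, in WT and P53-/- ESCs, with the standard error of the limma fit as bars and the role in brackets. Most lie below 0 in both genotypes, Lin28a lowest at -3.35 and -4.23; Prkra is highest, at 1.79 and 1.69.

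Between the genotypes in 2i, 15 of the 49 pathway genes had an unadjusted limma p under 0.05, a count with no share of all genes beside it. Of the 49, 3 were called (6.12%, beside the 10.3% of all genes tested). Lin28a and Zswim8, a ubiquitin ligase adaptor of target-directed microRNA decay, were lower in P53-/-, and Lin28b was higher. The log2 fold change was -0.91 for Lin28a (SE 0.25, limma adjusted p = 0.0708), -0.66 for Zswim8 (SE 0.20, limma adjusted p = 0.0946) and 0.82 for Lin28b (SE 0.19, limma adjusted p = 0.0465). These calls were not stable: a fit of the 2i libraries alone made none of them, and all 3 were lost without P53-/- 2i library 2, WT 2i library 2, WT serum library 1 or WT serum library 2. Other pathway genes gained a call in an alternative setting, among them Snd1, Mov10 and Pan3, named after their values were seen. Over the settings their log2 fold changes went as far as -0.65, 0.75 and 0.66. With libraries left out singly, Lin28a stayed called only without P53-/- 2i library 1, at -1.32, and was at -0.51 without P53-/- 2i library 2; leaving out a serum library left its fold change at -0.91 and altered the estimate of the spread. In serum no pathway gene was called with limma, where 1.02% of all genes tested were called. There 3 had an unadjusted p under 0.05, again with no share of all genes beside it. A test of whether the effect of P53 differed between 2i and serum called no pathway gene and no host. At an unadjusted limma p under 0.05 there were 5 and 0 genes. No share of all genes was worked out for this test, so nothing is read from these counts.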

How the data were processed

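Total RNA of G1-sorted cells was depleted of ribosomal RNA and sequenced as stranded libraries. The authors deposited FPKM values in 1 table with 8 columns, 2 for each of 4 groups. The submitters' processing notes name STAR, Cufflinks, DESeq2 and the build mm9, without versions or roles. The columns carry group names only, and 4 samples of the series (P21-/- ESCs and their WT) have no column and were not analysed here. No column was left unused.

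Symbols were matched to GENCODE M21 and RefSeq (GRCm38.p6) for places, hosts and sequences, and no coordinates were converted. The 12572 genes whose FPKM averaged 0.5 or more were tested on log2(FPKM + 0.1) with limma 3.58.1 (R 4.3.3), in 1 fit of 4 groups with an eBayes trend and Benjamini-Hochberg adjustment over all genes tested. This scale understates changes of low genes. A call needed a fold change above 1.5 with an adjusted p below 0.1. FPKM values are not counts, so no count model was run; the value of 1 fragment was estimated from the low values of small RNA genes of 60 to 150 bases. Scripts were tested on simulated data. Tables and figures used pandas 2.3.3 and numpy 2.4.6 under Python 3.11.15, with matplotlib 3.10.9.

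The members and gene lists were chosen with earlier results of these data known. Genes named were members above 0 in all libraries, members of known families, the 5 highest per group among those at 0 in another group, members above 0 in all 4 libraries of a culture without overlap between genotypes, their hosts, and up to 10 called pathway genes per comparison with 6 core genes. Mir183, Mir24-2, Mir3062, Mir3068 and Mir677 fell outside this rule and were named after their values were seen. Alternatives were pseudocounts of 1 and 0.01, no filter or one at an average FPKM of 1, quantile normalization, median-ratio scaling, a fit of the compared groups only, no trend, no small RNA genes, and each library left out.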

Additional observations from a re-analysis of the deposited data

How the results depend on the processing

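When libraries were left out singly, the number of the 22 microRNA genes called ran from 0 to 2 for P53-/- against WT in 2i, 2 to 11 in serum, 9 to 20 for 2i against serum in WT and 12 to 15 in P53-/-. That of pathway genes ran from 0 to 3 for P53-/- against WT in 2i, 0 to 0 in serum, 34 to 36 for 2i against serum in WT and 31 to 33 in P53-/-. That of hosts was 0 to 0 between the genotypes in both cultures, 5 to 5 for 2i against serum in WT and 5 to 6 in P53-/-. A group left with 1 library was assumed to vary like the others. Pathway genes called between the genotypes in 2i fell from 3 to 1 with a pseudocount of 1, no filter or no trend, and to 0 in a fit of the 2 compared groups. Hosts called between the cultures in WT fell from 5 to 3 with quantile normalization. Counting microRNA symbols above 0 in any library gave 11 in P53-/- 2i, 8 in WT 2i, 43 in P53-/- serum and 62 in WT serum. Asking for at least 2 estimated fragments in both libraries, an alternative chosen after seeing the data, gave 2 in WT 2i, 11 in P53-/- serum and 7 in WT serum. The cause of these changes was not tested, apart from the fewer libraries or wider count that an alternative sets by its construction. In the other 194 values of these counts the number stayed within 1.5 times, and among the named host and pathway genes no called difference reversed, while 44 values lost a call and 9 gained one; for the 22 microRNA genes only counts were recomputed. No paired analysis was possible because the columns carry no replicate numbers. The depth limits what 0 means. With each 2i library taken singly, the serum mean lay under both limits for 15 of the 16 genes at 0 in WT 2i. It did so for 9 of the 14 at 0 in P53-/- 2i.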
